A study of Homo sapiens with 9 samples.

Results

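The metallothioneins are small cysteine-rich proteins of the cytoplasm and nucleus that bind zinc and copper and also take up cadmium. The array held 10 non-control probes for 8 metallothionein genes (MT1A, MT1E, MT1F, MT1G, MT1H, MT1M, MT1X and MT2A), out of 50599 probes in all, and every probe whose RefSeq accession belonged to one of these genes was used. Of the 10 probes, 7 (for 5 genes) were detected on all 9 arrays, the MT1G probe was detected on 1 array, and the MT1H and MT1M probes on none. The question put to them was whether their RNA differed among parental lung cancer cells, the stem-like colony cells made from them and the spindle-shaped cells that those colonies gave rise to. In none of the 3 comparisons did any of these 10 probes pass the test as fitted, while MT1F passed in OSK-A549-SN cells against parental under some of the processing alternatives. The spread between arrays of the same group was above that of the median probe for each of the 7, and MT1F was the 1 member whose levels separated the 3 groups.

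The cells were A549, a human lung adenocarcinoma line grown in serum-containing Dulbecco's medium. The 3 parental samples carried passage numbers 98, 98 and 99, and all 6 transduced samples were taken 7 to 9 passages later. The 3 OSK-A549-Colony samples were cells of dome-shaped colonies that appeared after retroviral delivery of OCT3/4, SOX2 and KLF4, which stay in the plate when trypsin is applied briefly. The 3 OSK-A549-SN samples were the spindle-shaped cells around those colonies, which carry the same retroviruses and detach first. No empty-vector sample was among the 9 arrays, so transduction, colony picking and the difference in passage number cannot be told apart. Each sample was 1 RNA on 1 single-colour Agilent array. Levels are given on the log2 scale relative to the 75th percentile of all probes of the array, so that 0 is that percentile, and the levels of different probes are not comparable with each other.

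All 6 epithelial marker genes examined were detected on every array, while PECAM1, an endothelial marker, was detected on none. The other 3 of the 4 blood and endothelial markers were detected on all arrays, and the summed level of all 4 (in units of the array's 75th percentile) was 2.72 to 7.90 in parental cells, 2.32 to 2.90 in OSK-A549-Colony cells and 3.47 to 4.45 in OSK-A549-SN cells. CD14 made up most of this sum. Of the 7 mesenchymal markers, 5 were detected on every array and ZEB2 on none, and the summed level of all 7 was 154 to 212 in parental cells, 222 to 238 in OSK-A549-Colony cells and 230.0 to 252 in OSK-A549-SN cells, so both transduced groups lay above parental. The part of this shift in the metallothionein levels was not tested. Between 25809 and 29316 probes were detected per array. OSK-A549-SN replicate 3 was hybridised alone on the second slide and had the highest number of detected probes, 29316. The 8 other arrays shared the first slide.

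Metallothionein transcription is controlled mainly by MTF1, a zinc-sensing transcription factor that enters the nucleus when free zinc rises and binds short metal response elements (MREs) before the start of these genes. Glucocorticoids, oxidative stress and interleukin-6 signalling through STAT3 are further known inducers. In humans the genes lie side by side on chromosome 16. In the RefSeq table (assembly GRCh38.p14) the order of the family between BBS2 and NUP93 was MT4, MT3, MT2A, MT1L, MT1E, MT1M, MT1JP, MT1A, MT1DP, MT1CP, MT1B, MT1F, MT1G, MT1H, MT1IP and MT1X. The array was annotated on hg19, so no probe coordinates are given from that table. MT1-type transcripts resemble each other closely, and the share of a probe's signal that came from a related copy was not tested.

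The promoter table from RefSeq held 3 of the 8 genes, namely MT2A, MT1X and MT1H. The 250 bases before their start are shown because MT2A and MT1X varied together over the arrays while MT1H was not detected, and because the region holds the MREs of this family. Capitals mark the core letters of an MRE, TGCACNC or TGCGCNC, found on either strand, and each sequence is read 5′ to 3′ on the plus strand, at chr16:56608334-56608583 for MT2A, chr16:56682220-56682469 for MT1X and chr16:56669564-56669813 for MT1H (GRCh38.p14).
MT2A: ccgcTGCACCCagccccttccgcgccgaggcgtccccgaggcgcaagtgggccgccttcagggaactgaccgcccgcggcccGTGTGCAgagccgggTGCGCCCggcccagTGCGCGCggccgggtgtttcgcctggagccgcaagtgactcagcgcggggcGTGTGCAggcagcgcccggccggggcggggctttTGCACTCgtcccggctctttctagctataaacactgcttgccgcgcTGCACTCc
MT1X: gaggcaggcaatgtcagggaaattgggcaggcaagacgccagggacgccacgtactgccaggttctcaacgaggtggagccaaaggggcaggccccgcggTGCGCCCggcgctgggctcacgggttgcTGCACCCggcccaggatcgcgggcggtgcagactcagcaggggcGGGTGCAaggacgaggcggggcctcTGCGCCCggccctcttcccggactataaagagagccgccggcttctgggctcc
MT1H: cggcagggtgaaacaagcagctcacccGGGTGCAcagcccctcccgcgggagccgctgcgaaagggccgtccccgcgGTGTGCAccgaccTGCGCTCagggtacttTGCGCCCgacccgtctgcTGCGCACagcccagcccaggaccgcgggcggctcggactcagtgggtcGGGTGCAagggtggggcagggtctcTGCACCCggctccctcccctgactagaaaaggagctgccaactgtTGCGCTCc

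The core letters occurred 7 times before MT2A, 4 times before MT1X and 8 times before MT1H. Among 35116 promoter windows of the same length, 24.8% held at least 1 match, 0.370% at least 4, 0.0313% at least 7 and 0.0171% at least 8. The undetected MT1H therefore carried as dense a set of these letters as the detected MT2A. The AP-1 letters TGACTCA, which do not overlap the MRE letters, occurred 1 time before MT2A (4.20% of windows held them) and not in the other windows. The TATA letters TATAAA were present before MT2A and MT1X and absent from the MT1H window, against 10.7% of all windows. A match to these letters is not a measured binding site.

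MT2A is the metallothionein that most human cell types use. In parental cells its level was 5.09, 5.44 and 6.51 in replicates 1, 2 and 3. In OSK-A549-Colony cells it was 6.35, 5.75 and 5.82, and in OSK-A549-SN cells 6.23, 6.30 and 6.01. Parental replicate 3 was the highest of all 9 arrays and the other parental replicates were the lowest, so that both transduced groups lay inside the parental range. The parental arrays spanned a 2.68-fold range, against 1.52-fold among OSK-A549-Colony arrays and 1.23-fold among OSK-A549-SN arrays. Parental replicate 3 also had a low 75th percentile (218 intensity units, in a range of 218 to 271 over the arrays). Without any scaling the parental arrays differed 2.29-fold for MT2A. The group difference of OSK-A549-Colony from parental was 0.29 (95% confidence interval -0.70 to 1.29) and that of OSK-A549-SN from parental 0.50 (-0.42 to 1.42), both within the spread of the parental arrays.

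MT1E, a type 1 gene of the same cluster, was measured by 2 probes. Its probe A_23_P206724 stood at 1.97, 2.33 and 3.29 in parental cells, at 3.05, 2.46 and 2.43 in OSK-A549-Colony cells and at 2.90, 2.99 and 2.41 in OSK-A549-SN cells. The pattern resembled that of MT2A, with parental replicate 3 highest and OSK-A549-Colony replicate 1 next, and all 3 groups overlapped. The other probe, A_21_P0000671, gave an intensity of 15.1 to 26.5 units, close to the lowest intensity of any detected probe (7.91 to 13.5 over the arrays). Its levels were -3.32, -3.53 and -3.04 in parental cells, -3.75, -3.90 and -4.00 in OSK-A549-Colony cells and -3.19, -3.50 and -3.66 in OSK-A549-SN cells. The OSK-A549-Colony arrays were thus lowest in this probe and did not overlap with either other group, while the probes of MT1E did not give 1 order of groups. For OSK-A549-Colony against parental, A_21_P0000671 differed by -0.59 ± 0.16 (SE; limma adjusted p = 0.0738) and A_23_P206724 by 0.12 ± 0.38 (adjusted p = 0.849).

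MT1X, at the other end of the cluster, also had 2 probes. A_33_P3350056 was at 2.96, 3.21 and 4.10 in parental cells, 3.93, 3.35 and 3.25 in OSK-A549-Colony cells and 3.68, 3.76 and 3.35 in OSK-A549-SN cells. A_33_P3236868 was at 0.66, 0.69 and 1.09 in parental cells, 0.89, 0.42 and 0.22 in OSK-A549-Colony cells and 0.89, 0.78 and 0.28 in OSK-A549-SN cells. Both probes put parental replicate 3 highest, and for both the 3 groups overlapped. The mean difference between OSK-A549-Colony and parental had opposite signs in the 2 probes, 0.09 (-0.78 to 0.96) and -0.30 (-0.85 to 0.24), each inside its interval around 0.

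MT1A lies in the middle of the cluster. It stood at 5.01, 5.06 and 5.85 in parental cells, 5.41, 5.09 and 5.03 in OSK-A549-Colony cells and 5.46, 5.50 and 5.70 in OSK-A549-SN cells. The OSK-A549-SN arrays were all above the OSK-A549-Colony arrays, and the parental arrays overlapped with both. The difference of OSK-A549-Colony from OSK-A549-SN was -0.37 ± 0.14 (SE), with an unadjusted p of 0.0357 from limma and an adjusted p of 0.228.

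MT1F differed from the other members. Its level was 1.22, 1.29 and 2.18 in parental cells, 0.78, 0.68 and 0.59 in OSK-A549-Colony cells and 0.28, 0.53 and -0.12 in OSK-A549-SN cells. Every parental array was above every OSK-A549-Colony array, and every OSK-A549-Colony array was above every OSK-A549-SN array. The same order without overlap was seen in 1.13% of 33086 probes, and MT1F was the 1 of the 7 probes detected throughout that showed it. No order was named beforehand, and probes whose groups separated in another order are not counted in that share. The group means were 1.56 ± 0.53, 0.68 ± 0.10 and 0.23 ± 0.33 (SD, n = 3 each). The difference from parental was -0.88 ± 0.28 (SE) for the colony cells (limma adjusted p = 0.102) and -1.33 ± 0.32 for the spindle-shaped cells (limma adjusted p = 0.0945). The latter corresponds to a fold of 2.52, with an interval on the log2 scale of -2.11 to -0.56. This difference was called with normexp background correction (adjusted p = 0.0374), with a stricter detection filter (adjusted p = 0.0369), with all 9 arrays in 1 limma fit (adjusted p = 0.0286) and at unadjusted p-values. OSK-A549-Colony cells differed from OSK-A549-SN cells by 0.45 ± 0.18 (adjusted p = 0.253). Without parental replicate 3, which was high for most members, the MT1F differences from parental were -0.57 (adjusted p = 0.0345, under 2-fold) and -1.02 (adjusted p = 0.10).

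Not all members had RNA above background. The MT1H probe read 2.19 to 4.69 intensity units and the MT1M probe 2.44 to 6.20, and neither was detected on any array. MT1G was not detected on the parental arrays (2.81 to 3.21 units), on the OSK-A549-Colony arrays (2.16 to 2.93 units) or on OSK-A549-SN replicates 1 and 2 (2.33 and 8.15 units). On OSK-A549-SN replicate 3 it was detected, at 85.9 units. Since 1 of the 3 OSK-A549-SN arrays measured it, no group difference is given for MT1G. That array was the one on the second slide, and it held 1150 probes detected on no other array, against 167 to 419 on each of the other arrays. A gap to the next array at least as wide as that of MT1G (3.08 on the log2 scale) was found for 30 probes on that array and for 17 to 242 probes on the others. The part of slide and array in the MT1G signal was not tested.

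Across all members, the counts of calls were as follows. A call required an adjusted p under 0.05 and a fold over 2. For OSK-A549-Colony against parental, 0 of the 7 metallothionein probes tested were called, where 3.71% of 30869 probes were called. For OSK-A549-SN against parental, 0 of 8 were called, against 1.54% of 32222 probes. Between the transduced groups, 0 of 8 were called, and 0% of 31747 probes were called in that comparison (lowest adjusted p = 0.0932, with 6181 probes at an unadjusted p under 0.05). At these background shares a count of 0 among 7 or 8 probes is not a result about the family. At an unadjusted limma p under 0.05, 2 of 7, 1 of 8 and 3 of 8 probes passed in these comparisons in the same order, where 30.1%, 21.6% and 19.5% of all probes did. The groups did not overlap for 2 of the 7 probes detected throughout (both with OSK-A549-Colony below parental; 20.8% of all probes), for 1 (with OSK-A549-SN below parental; 15.3%) and for 3 (30.8% of all probes in either direction). The median difference of these 7 probes was -0.13 for OSK-A549-Colony against parental, where the median of all probes tested was -0.03. It was 0.17 for OSK-A549-SN against parental (all probes 0.08) and -0.14 between the transduced groups, colony minus spindle-shaped cells (all probes -0.06). With 1 array left out, the first ran from -0.27 to 0.14 (0.14 without parental replicate 3) and the second from -0.059 (without parental replicate 1) to 0.51 (without parental replicate 3), so the sign of both rested on single arrays. The third ran from -0.33 (without OSK-A549-Colony replicate 1) to -0.0081 (without OSK-A549-Colony replicate 3). Both comparisons with parental use the same 3 parental arrays.

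The intervals show what 3 arrays per group could resolve. For MT2A, the interval for OSK-A549-SN against parental reached 1.42 and that between the transduced groups ran from -0.68 to 0.27. For MT2A the comparison between the 2 transduced groups was thus the more precise. A 2-fold difference between those groups lay outside the interval for each of the 7 probes. Against parental cells the intervals of MT2A and of A_23_P206724 of MT1E reached past 1, with 1.06 (colony cells) and 1.15 (spindle-shaped cells) for the latter, so a 2-fold higher level lay inside them.

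**Figure D1:**
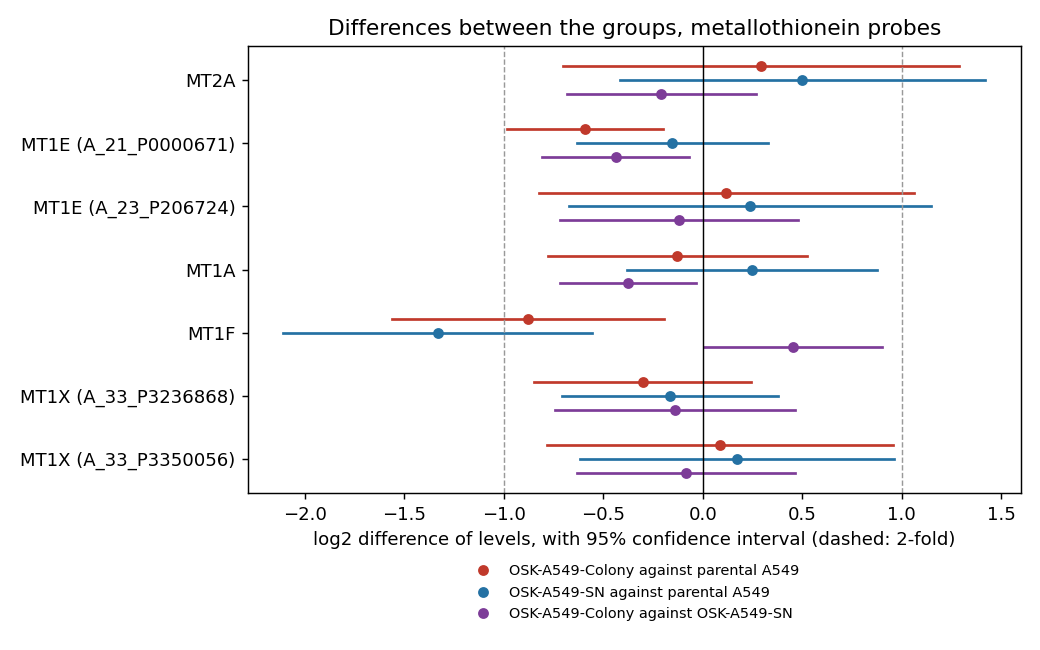
Difference between group means on the log2 scale for each metallothionein probe (points) with 95% confidence intervals from limma (lines); dashed lines mark a 2-fold difference. In both comparisons with parental the MT1F interval lies below 0, and the intervals of MT2A, MT1A and both MT1X probes include 0 there.

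The variation inside the groups was larger for the metallothioneins than for most probes. The pooled SD within groups was 0.48 for MT2A, 0.48 for A_23_P206724 of MT1E, 0.42 for A_33_P3350056 of MT1X, 0.37 for MT1F, 0.31 for A_33_P3236868 of MT1X, 0.30 for MT1A and 0.21 for A_21_P0000671 of MT1E, against a median of 0.19 over the 23761 probes detected on all arrays. MT2A exceeded 96.4% of those probes in this measure and MT1F 90.1%. In parental cells alone the SD of MT2A was 0.74, against a median of 0.21 over probes.

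The members moved together inside the groups. After each group's mean was subtracted, the deviations of MT2A over the 9 arrays had a Pearson r of 0.98 with A_23_P206724 of MT1E, 0.98 with A_33_P3350056 of MT1X, 0.89 with MT1A and 0.89 with MT1F. Over all 21 pairs of the 7 probes, r of the deviations ran from 0.50 to 0.99 with a median of 0.83. The points share their array and its scaling, and similar transcripts can bind to one another's probes, so these values are a description. The dim probe A_21_P0000671 of MT1E and A_33_P3236868 of MT1X had the lower values with MT1A, 0.53 and 0.50. On parental replicate 3 all 7 probes were above their group mean, as they were on OSK-A549-Colony replicate 1.

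MT1F took part in this shared variation but not in the group levels of MT2A. With the group means left in, r of MT1F over the 9 arrays was -0.04 with MT2A, where r of the deviations was 0.89. Over the 6 other probes r of the levels ran from -0.04 to 0.58, highest with A_33_P3236868 of MT1X. That probe and A_21_P0000671 of MT1E also had their highest group mean in parental cells. To show the 2 patterns apart, each probe's level was taken relative to MT2A on the same array, a step chosen after the values were seen. MT1F minus MT2A was -3.87, -4.15 and -4.33 in parental cells, -5.57, -5.07 and -5.23 in OSK-A549-Colony cells and -5.96, -5.77 and -6.12 in OSK-A549-SN cells. The 3 groups stayed in the same order with no overlap, and the SD within groups was 0.23, 0.26 and 0.17, below the SD of MT1F itself in parental and OSK-A549-SN cells. Relative to MT2A, MT1F was 2.25-fold lower in OSK-A549-Colony cells than in parental cells, 3.56-fold lower in OSK-A549-SN cells than in parental cells and 1.58-fold higher in the colony cells than in the spindle-shaped cells. Each of these comparisons had an exact permutation p of 0.10 (two-sided, n = 3 each), the smallest that 3 arrays against 3 allow. The order parental over OSK-A549-Colony over OSK-A549-SN without overlap held in 0.465% of 33085 probes treated alike. Subtracting MT2A also adds its own spread (SD 0.74 in parental cells) to probes that do not vary with it. That share is therefore not a like background for MT1F, whose deviations followed those of MT2A.

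The other probes differed less from parental than MT1F did when set against MT2A, with the same sign. A_23_P206724 of MT1E differed from parental by -0.18 in OSK-A549-Colony cells and by -0.27 in OSK-A549-SN cells, and A_33_P3350056 of MT1X by -0.21 and -0.33. MT1A differed by -0.42 and -0.25. The values were larger for A_21_P0000671 of MT1E, at -0.88 and -0.65, and for A_33_P3236868 of MT1X, at -0.60 and -0.67, with parental SDs of 0.57 and 0.51. A ratio within an array shows unequal change and not which of the probes changed. When the MT2A level of each array was instead entered as a covariate in 1 limma fit of all 9 arrays, also chosen after the values were seen, MT1F was called in both comparisons with parental, at -1.08 (adjusted p = 0.00706) and -1.67 (adjusted p = 0.00786). In that fit 6.89% and 5.37% of 33085 probes were called, and MT1F was the 1 of the 8 member genes among them. The pseudogene MT1DP, described below, was also called there in OSK-A549-Colony against parental, at -1.44 (limma adjusted p = 0.0154). Over all the alternative settings its adjusted p ran from 0.00706 to 0.257 in OSK-A549-Colony against parental and from 0.00786 to 0.245 in OSK-A549-SN against parental.

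The rest of the family gave a further view of the cluster. Of 9 other metallothionein genes and pseudogenes listed, 6 had a probe, as did MT1HL1, which was not in that list. MT1B and MT1L lie inside the cluster, and with the deviations of A_23_P206724 of MT1E their r was 0.996 for MT1B and 0.998 for MT1L. MT1HL1, a related copy on another chromosome, had an r of 0.997 with the same probe. MT1B ranged from 3.12 to 4.54 in parental cells, from 3.68 to 4.27 in OSK-A549-Colony cells and from 3.67 to 4.23 in OSK-A549-SN cells, so the groups overlapped as for MT2A. MT1L ranged from 3.14 to 4.60 in parental cells, from 3.74 to 4.41 in colony cells and from 3.74 to 4.30 in the spindle-shaped cells. MT4, expressed in squamous epithelium, was not detected on any array. The probe of the pseudogene MT1IP read 11.0 to 20.5 intensity units, close to background, and was detected on 4 arrays, 3 of OSK-A549-SN and 1 of OSK-A549-Colony cells.

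MT1DP, a transcribed pseudogene between MT1A and MT1F, was the 1 family member that passed the test as fitted. Its level was -2.30, -2.18 and -1.44 in parental cells, -3.47, -3.08 and -3.28 in OSK-A549-Colony cells and -3.13, -2.22 and -2.84 in OSK-A549-SN cells. All OSK-A549-Colony arrays were below all parental arrays, and the OSK-A549-SN arrays overlapped with both groups. The MT1DP probe read 51.6 to 80.2 intensity units in parental cells and 22.7 to 27.8 units in OSK-A549-Colony cells. The latter values lay close to the lowest intensity of any detected probe (7.91 to 13.5 over the arrays). MT1DP fell by 1.30 ± 0.26 (SE) on the log2 scale in OSK-A549-Colony cells against parental (limma adjusted p = 0.0419). This call was lost with normexp background correction (-0.51, adjusted p = 0.0832), with quantile normalization, without a detection filter, without moderation, with the replicate block, and without parental replicate 2 or any 1 of the OSK-A549-Colony arrays (adjusted p = 0.102 to 0.135 with such an array left out). In OSK-A549-SN cells the difference from parental was -0.75 (adjusted p = 0.260). Like MT1F it was highest in parental cells, and r of its deviations with those of MT1F was 0.75.

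MT3, the growth inhibitory metallothionein known from brain, behaved differently. Its level was 2.66, 2.69 and 3.00 in parental cells, 2.62, 2.71 and 2.58 in OSK-A549-Colony cells and 2.75, 2.83 and 3.68 in OSK-A549-SN cells. OSK-A549-SN replicate 3, on the second slide, was the highest array, as for MT1G. The difference of OSK-A549-Colony from OSK-A549-SN was -0.45 ± 0.26 (SE; limma adjusted p = 0.391), and r of the MT3 deviations with those of MT2A was 0.12.

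MTF1, the regulator described above, stood at -0.19, -0.21 and -0.32 in parental cells, 0.05, 0.04 and 0.11 in OSK-A549-Colony cells and -0.12, -0.05 and -0.44 in OSK-A549-SN cells. The OSK-A549-Colony arrays were all above the others. The difference from parental was 0.31 ± 0.09 (SE; limma adjusted p = 0.0977). SLC30A1, the plasma membrane zinc exporter that is itself a target of MTF1, was at 2.08, 1.94 and 1.82 in parental cells, 1.98, 1.74 and 1.76 in OSK-A549-Colony cells and 1.91, 1.81 and 1.59 in OSK-A549-SN cells. Its groups overlapped, and its difference from parental was -0.11 (95% confidence interval -0.42 to 0.20) in OSK-A549-Colony cells and -0.17 (-0.54 to 0.19) in OSK-A549-SN cells. Parental replicate 3, highest for MT2A, was the lowest parental array for SLC30A1.

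Lists of 104 genes that handle metals, regulate metallothioneins, adjoin the cluster or mark cell types were read in the same way. For OSK-A549-Colony against parental, 5 of the 90 genes tested were called (1 higher and 4 lower), against 3.71% of all probes. For OSK-A549-SN against parental, 2 of 91 were called, both lower, against 1.54% of all probes, and between the transduced groups 0 of 91. All 5 of the former calls, MT1DP included, were lost without parental replicate 2 or without OSK-A549-Colony replicate 2, and 1 of them, IL6, was left without OSK-A549-Colony replicate 1 or 3. With normexp background correction MT1DP, KLF9 and IL6 were not called. Both calls in OSK-A549-SN cells were lost with any 1 of the 6 arrays left out.

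Among zinc transporters, none of the 12 importers tested and 1 of the 7 exporters tested was called in OSK-A549-Colony cells. SLC30A3, which loads zinc into vesicles, was at 1.49, 1.72 and 1.96 in parental cells, 0.56, 0.38 and 0.50 in OSK-A549-Colony cells and from 0.90 to 1.27 in OSK-A549-SN cells. It fell by 1.24 ± 0.15 (SE) on the log2 scale in OSK-A549-Colony cells (limma adjusted p = 0.0215), and its 3 groups did not overlap. The zinc importer SLC39A5 was at -0.27, -0.68 and -0.28 in parental cells and -1.44, -1.36 and -1.60 in OSK-A549-SN cells. It fell by 1.05 ± 0.17 in OSK-A549-SN cells (limma adjusted p = 0.0474). In OSK-A549-Colony cells its difference was -0.73, under 2-fold. The medians of the tested importers were 0.25 and 0.20 in the colony and the spindle-shaped cells against parental, where the medians over all genes were 0.03 and 0.09.

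None of the 10 copper-handling genes was called, with medians of -0.03 and 0.05 against parental. Of these, SLC31A1, the main copper importer, differed by 0.36 ± 0.11 (SE; limma adjusted p = 0.0906) in OSK-A549-Colony cells. In the metal-responsive list, PGF, a growth factor of the VEGF family whose gene responds to MTF1, was at -0.93, -0.12 and -0.08 in parental cells, -2.57, -2.23 and -2.17 in OSK-A549-Colony cells and -1.70, -1.47 and -1.67 in OSK-A549-SN cells. PGF fell by 1.95 ± 0.27 in OSK-A549-Colony cells (limma adjusted p = 0.0245), the 1 call among the 6 genes of that list tested. The 10 tested neighbours of the cluster had no call, with medians of 0.00 and 0.04 against parental. OGFOD1, which lies near the cluster, differed by 0.46 ± 0.11 in OSK-A549-Colony cells (limma adjusted p = 0.0597), and NUP93 by 0.48 ± 0.15 in OSK-A549-SN cells (adjusted p = 0.141).

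Of the known inducers, the glucocorticoid-responsive list had 1 call among 9 genes in OSK-A549-Colony cells. KLF9, a transcription factor induced by glucocorticoids, was at 0.11, 0.93 and 0.95 in parental cells, -0.74, -0.37 and -0.57 in OSK-A549-Colony cells and -0.71, -0.39 and -0.74 in OSK-A549-SN cells, and fell by 1.23 ± 0.26 in OSK-A549-Colony cells (limma adjusted p = 0.0475). None of the 8 NRF2-responsive genes tested was called. Their medians against parental were 0.38 in the colony and 0.04 in the spindle-shaped cells, where the medians over all genes were 0.03 and 0.09. In OSK-A549-Colony cells 5 of the 8 were higher and 3 lower, with NQO1 at 0.55 (limma adjusted p = 0.0463, under 2-fold). Among the genes of this list detected on all arrays compared, the largest difference from parental was that of SLC7A11, the cystine importer, at 0.92 ± 0.24 in OSK-A549-Colony cells (limma adjusted p = 0.0688). In the interleukin-6 list, IL6 stayed under the detection limit on all parental and OSK-A549-SN arrays (1.94 to 2.84 intensity units) and was measured at 48.8, 31.6 and 20.3 units on the OSK-A549-Colony arrays. In the main processing and against the lowest signal of a detected probe, IL6 in OSK-A549-Colony cells was at least 2.39-fold higher than in the parental line. Against OSK-A549-SN cells this bound was 3.12-fold. The fitted log2 differences, which use the undetected values, were 3.56 against parental (limma adjusted p = 0.0153) and 3.93 against OSK-A549-SN cells (adjusted p = 0.0932, not called). With normexp background correction the difference from parental was 0.69 (limma adjusted p = 0.0129, under 2-fold). FGA, the fibrinogen alpha chain and an acute-phase gene, fell by 1.32 ± 0.17 in OSK-A549-SN cells against parental (limma adjusted p = 0.0375). In these bulk RNA samples, a change in the share of cells that express a gene and a change in RNA per cell cannot be told apart.

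Outside the family, the probes most like the metallothioneins were ranked by Pearson r over the 9 arrays with the mean centred level of the 7 member probes, among 8984 probes detected on all arrays with an SD of at least 0.3. That mean was 0.65 on parental replicate 3, between -0.29 and 0.18 on the other arrays. The 5 named genes with the highest r were MFGE8 (0.96), JUNB (0.94), ECE1 (0.93), ARSG (0.92) and GALNT6 (0.92). MFGE8, a secreted bridging protein for dying cells, was at -1.44, -1.08 and -0.21 in parental cells and between -1.49 and -0.95 on the 6 other arrays. JUNB, a subunit of AP-1, was at -1.99, -1.46 and -0.53 in parental cells and between -2.05 and -1.14 elsewhere. Both shared with MT2A the high value on parental replicate 3, which weighs heavily in an r over 9 arrays. The r of these 5 genes stayed between 0.87 and 0.97 after quantile normalization and between 0.91 and 0.96 after normexp background correction.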

How the data were processed

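Expression was measured in 3 parental A549, 3 OSK-A549-Colony and 3 OSK-A549-SN samples, 1 array each. The authors deposited the background-subtracted intensity of every spot, written by Feature Extraction 11.5.1.1. They also deposited a table of log2 values, which equalled the values used here minus 1 constant per array to within 0.001 for 100% of probes, with column medians of -3.82 to -3.55. How its constants were chosen is not given in the sources used here.

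Control spots (4259 per array) and outlier-flagged spots were left out, spots of a probe were averaged on the log2 scale, and the value at percentile 75 of each array was subtracted, with no saturated spot on any array. Detection of a probe required that 0.5 or more of its spots were flagged significant and well above background. Genes were named from RefSeq accessions, with 30275 of 32065 probes matched. Each comparison was fitted with limma 3.58.1 (R 4.3.3) on its 6 arrays, over probes detected on at least 1 of them, with Benjamini-Hochberg adjustment. A call required an adjusted p under 0.05 and a fold over 2. The fit was tested on simulated data. The methods name 3 separate retroviral transductions as the source of the RNA, and no label says which samples share one, although same-numbered samples of the transduced groups had the same passage number. For a gene outside the family its probe with the highest mean was used. All members were named, and of the lists the called genes, MTF1, SLC30A1, IL6 and the gene with the largest difference of each list in each comparison among genes detected on all arrays compared. The members and lists were chosen with earlier results of these data known. Samples of the same replicate number were not taken as pairs, as described under the processing alternatives.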

Additional observations from a re-analysis of the deposited data

How the results depend on the processing

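No probe of the 8 member genes was called under quantile normalization, without a detection filter, with the slide as a block, without moderation, in the deposited log2 table or with any 1 array left out. In OSK-A549-SN against parental, 1 probe, MT1F, was called with normexp correction (-1.21), the stricter filter (detected on every array of a group; -1.33), all 9 arrays in 1 fit (-1.33), unadjusted p-values (-1.33) and the MT2A covariate, which was chosen after seeing the data (-1.67). With that covariate 1 of these probes, MT1F, was called in OSK-A549-Colony against parental as well (-1.08). The MT1F difference kept its sign under every alternative run.

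Differences near 0 changed sign. With the covariate, the difference of A_23_P206724 of MT1E became -0.17 and -0.25 (colony and spindle-shaped cells against parental) and 0.085 between them, that of A_33_P3350056 of MT1X became -0.17, -0.26 and 0.10, and MT1A became -0.039 in OSK-A549-SN cells. The mean of both probes gave -0.24 for MT1E and -0.11 for MT1X in OSK-A549-Colony against parental. The slide as a block, which leaves the array on slide 2 without weight, gave 0.022 for A_33_P3236868 in OSK-A549-SN against parental. With 1 array left out, the differences in OSK-A549-Colony against parental ran from -0.27 to 0.14 for MT1A, from -0.16 to 0.50 for A_23_P206724, from -0.14 to 0.43 for A_33_P3350056 and from -0.00084 to 0.71 for MT2A, each highest without parental replicate 3. In OSK-A549-SN against parental they ran from -0.041 to 0.62 for A_23_P206724, from -0.059 to 0.51 for A_33_P3350056 and from -0.28 to 0.022 for A_33_P3236868. Between the transduced groups they ran from -0.33 to 0.0054 for A_33_P3236868 and from -0.29 to 0.048 for A_33_P3350056. The cause was not tested.

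Of the listed genes, the 5 calls in OSK-A549-Colony against parental became 3 with normexp, 2 without moderation, 7 with the stricter filter and with unadjusted p-values, 6 with all 9 arrays in 1 fit, 4 without a detection filter and 0 to 6 with 1 array left out (0 without parental replicate 2 or OSK-A549-Colony replicate 2). The 2 calls in OSK-A549-SN against parental became 1 after quantile normalization, 6 with the stricter filter, with all 9 arrays in 1 fit and with unadjusted p-values, and 0 without a detection filter, with the slide block, without moderation and with any of the 6 arrays left out. The 0 calls between the transduced groups became 1 with normexp, with the stricter filter and with all 9 arrays, and 3 with unadjusted p-values. Over all probes, calls in the comparisons with parental went from 1145 to 333 and from 497 to 232 with normexp, and with 1 array left out they ranged from 0 to 1352 and from 0 to 190.

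With the replicate number as a block, 0 metallothionein probes, 0 listed genes and 0 of all probes were called in each comparison. Deviations from the group means of same-numbered samples correlated at 0.24, 0.07 and 0.14 between the transduced groups, where each sample correlated best with its own number, and from -0.20 to 0.15 with parental samples, and since not every pair passed 0.1 the samples were treated as sharing only a number. Same-numbered transduced samples also had the same passage number, which replicates 1 and 3 share. The paper describes detaching the spindle-shaped cells first and then picking the colonies that remained. No label says whether same-numbered samples came from the same culture. If they did, the fit without pairs may misstate the precision of the comparison between the transduced groups. The number of arrays, 3 per group, limits the precision throughout. The MT1E probe A_21_P0000671 lay close to background, as did the MT1DP probe in OSK-A549-Colony cells.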

Other observations

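Among genes detected on all arrays compared, which leaves out IL6, those with the largest difference of their list that are not described above, all on the log2 scale from limma and none of them called, were as follows. In OSK-A549-Colony against parental these were the keratin KRT19 at 1.17, the transcriptional repressor ZEB1 at 1.09 and the monocyte marker CD14 at -0.74, while FGA stood at -0.90 (adjusted p = 0.0266, under 2-fold). Between the transduced groups, colony minus spindle-shaped cells, KRT19 stood at 1.22, fibronectin (FN1) at 1.02, the cystine importer SLC7A11 at 0.95, the fibrinogen beta chain (FGB) at 0.90, the glucocorticoid target TSC22D3 at 0.73, SLC31A2 at -0.42 and GNAO1 at -0.26. In the same comparison PGF stood at -0.70, SLC30A3 at -0.61, CD14 at -0.57, MT1DP at -0.55 and SLC39A5 at 0.32. In OSK-A549-SN against parental, the fibrinogen gamma chain (FGG) stood at -1.35, FN1 at -1.33, KLF9 at -1.28, PGF at -1.24, E-cadherin (CDH1) at -0.83, SLC30A6 at 0.69, CDH5 at 0.57, SCO2 at 0.55 and NQO1 at 0.33. CD14 was at 1.27, 1.78 and 2.92 in parental cells, where replicate 3 was the highest array as it was for MT2A, and between 1.02 and 2.05 on the 6 other arrays. KRT19 and FN1 were not typical of their lists. Of the 6 epithelial markers, 4 were below 0 in OSK-A549-Colony against parental (median -0.30), with CDH1 at -0.997 (limma adjusted p = 0.0320, under 2-fold). Of the 6 mesenchymal markers tested, 4 were above 0 in OSK-A549-SN against parental (median 0.42, against 0.09 over all genes tested), and none was called.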
